A study of Homo sapiens with 16 samples.

Results

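The 10 genes described here are SOCS1 to SOCS7 and CISH, which form the suppressor of cytokine signalling (SOCS) family, together with STAT3 and JAK1 of the JAK-STAT pathway. The rule takes them by gene name and uses no measured value, although earlier results of these data were known when the genes were proposed. Within their GENCODE gene spans lay 14 of the 36970 regions in the merged peak list of the series, and 81 of the 191974 peaks in its 8 peak lists. In MeRIP-seq, the assay behind these lists, an antibody pulls down RNA fragments with N6-methyladenosine (m6A), and the resulting IP library is set against one of unenriched RNA, the input. The cells were C4-2B, a human prostate cancer line that responds to enzalutamide, and MDV-R, an enzalutamide-resistant line obtained from C4-2B by serial passage in the drug and kept in medium that contains it. Enzalutamide is a hormone therapy for prostate cancer. Both lines were labelled wild type and were taken at day 3, with 4 IP and 4 input libraries per line. Each line is a single cell population, so that the comparison is of C4-2B with one resistant derivative.

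JAK kinases sit on the inner part of cytokine receptors and, once a cytokine binds, phosphorylate STAT proteins, which move to the nucleus and switch on target genes. Genes of the SOCS family are themselves among these targets, and their proteins turn the signal down again. Each SOCS protein holds an SH2 domain, which binds phosphotyrosine, and a SOCS box, which recruits elongins and a cullin to mark bound proteins for destruction. SOCS1 and SOCS3 can also block the kinase directly. In prostate cancer cells the pathway carries signals of interleukin 6, growth hormone and prolactin, and SOCS transcripts are known targets of m6A.

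Before the members, the libraries were compared. Tag numbers (uniquely mapped reads without duplicates) were reconstructed from the statistics of the peak caller. They lay between 0.317 and 0.414 M in the 8 IP libraries, with overlapping ranges in both lines. C4-2B inputs held 0.308 to 0.431 M tags and MDV-R inputs 0.644 to 1.02 M, so that input depth and line cannot be told apart. The lists held 13191 to 30645 peaks, and C4-2B replicate 1 had the fewest. Over the 9327 regions called in all 8 lists the median log2 change from C4-2B to MDV-R was 0.44 for fold enrichment, −0.48 for local background and −0.04 for IP tags, and changes of the members are to be read against these shifts. In the titles of MDV-R samples a different cell line is named as well. The cell line field was followed, and of 9 prostate luminal markers 9 had a peak in all MDV-R lists and 7 in all C4-2B lists, KLK3 and TMPRSS2 lacking one in C4-2B replicate 1. Levels at some luminal regions differed between the lines. At a region of SLC45A3 the log2 change in IP tags was −1.45 and at a 3′UTR region of KLK2 −0.83 (both passing with limma). The KLK3 coding region had a mean of 618 CPM (IP tags at the summit per M tags of the library, used throughout) in 3 C4-2B lists and 205 CPM in 4 MDV-R lists. Of 7 urothelial and bladder markers 5 had none in any list (UPK1A, UPK1B, GATA3, KRT5 and KRT20), and the introns of UPK2 and UPK3A had peaks in more MDV-R than C4-2B lists. In the UPK2 span the C4-2B peaks all lay in a 5′UTR region of BCL9L, which had higher IP tags in MDV-R (log2 change 0.57, limma adjusted p = 0.00374), while an intronic UPK2 region had peaks in 2 lists of MDV-R and 0 of C4-2B. Of the intronic regions of UPK3A that held any, 1 had peaks in 4 lists of MDV-R and 2 of C4-2B, and the other in 2 and 0. What these markers mean for the identity of the MDV-R libraries was not tested. The 3 blood cell markers had none.

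Of the 10 genes, 8 held peaks. On the transcript that MANE Select gives for each gene, SOCS1, SOCS3, SOCS4, SOCS5 and SOCS6 carry their whole coding sequence (CDS) in 1 exon, SOCS2 in 2, CISH in 3 and SOCS7 in 9. STAT3 and JAK1, with 23 and 24 coding exons, held 0 peaks in the lists analysed here. The longest coding stretch within 1 exon was 213 nt in STAT3 and 343 nt in JAK1, against 455 nt in SOCS2 and 1608 nt in SOCS5. Among all 3301 genes with a CDS region called in all 8 lists, the median of this length was 829 nt, and among the 9091 genes with no region it was 264 nt. Transcript abundance was not part of that comparison and its share in it was not tested. Of the 2334 genes with 20 or more coding exons 65.6% held a region, against 52.3% of all 19061. The weakest peak that any list contained rested on 4 tags, or 6 in C4-2B replicate 1, which corresponds to 9.66 to 14.6 CPM. A methylated STAT3 or JAK1 transcript below that level would not have been listed. Peaks were called over local background, so a signal above that level could also go unlisted where the background was high. The absence of peaks therefore does not bound the IP signal of STAT3 or JAK1.

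The reference sequences at the strongest summit of the main regions follow, since m6A is placed on the A of short motifs ending in AC. They were read from hg38 on the strand of the gene, 5′ to 3′. Capitals mark GGAC and its related forms AGAC, GAAC and AAAC, on the strand shown. CDS windows are centred on the summit, and those in untranslated regions (UTRs) are centred on the nearest GGAC, within 100 nt of the summit.
SOCS2 CDS, chr12:93574703-93574763, plus strand: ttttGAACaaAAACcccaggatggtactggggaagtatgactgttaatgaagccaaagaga
SOCS4 CDS, chr14:55043480-55043540, plus strand: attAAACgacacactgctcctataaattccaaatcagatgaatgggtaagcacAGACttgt
SOCS5 CDS, chr2:46759271-46759331, plus strand: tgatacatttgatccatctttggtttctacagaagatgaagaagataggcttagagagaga
SOCS6 CDS, chr18:70325732-70325792, plus strand: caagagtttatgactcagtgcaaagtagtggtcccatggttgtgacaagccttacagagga
SOCS7 exon 1, chr17:38352385-38352445, plus strand: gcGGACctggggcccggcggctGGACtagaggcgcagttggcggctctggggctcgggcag
CISH CDS, shortly before the stop codon, chr3:50607621-50607681, minus strand: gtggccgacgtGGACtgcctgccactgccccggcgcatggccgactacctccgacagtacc
SOCS2 5′UTR, chr12:93572770-93572799, plus strand: ctgccaccatttcGGACaccccgcagGGAC
SOCS3 3′UTR, chr17:78358230-78358259, minus strand: aatgtggcaggcGGACctggaatgtgttgg

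In a window of 101 nt around the summit, GGAC occurred on the gene strand at SOCS7 exon 1 and at the CISH summit, and not at the CDS summits of SOCS2, SOCS4, SOCS5 and SOCS6. Over all 4004 CDS regions called in all 8 lists, 49.3% held GGAC in that window on the gene strand and 24.3% on the opposite strand. Any of the 4 forms occurred in the window of each of these genes except SOCS5, against 91.1% of the same CDS regions on the gene strand and 62.9% on the opposite one. Regions were wider than this window, and over their whole length the SOCS5 region held 12 GGAC, the SOCS6 CDS region 9, the CISH region 9, the SOCS2 CDS region 5 and the SOCS4 region 4. Per kb this was 7.34 in the SOCS2 CDS region, 6.38 in SOCS5, 6.33 in the SOCS6 CDS region, 5.28 in CISH and 2.52 in SOCS4. SOCS7 exon 1 had 6.33 per kb. The median of all CDS regions called in all 8 lists was 4.32, and only SOCS4 lay below it. A match is a description of the letters and does not locate the methylated base.

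**Figure D1:**
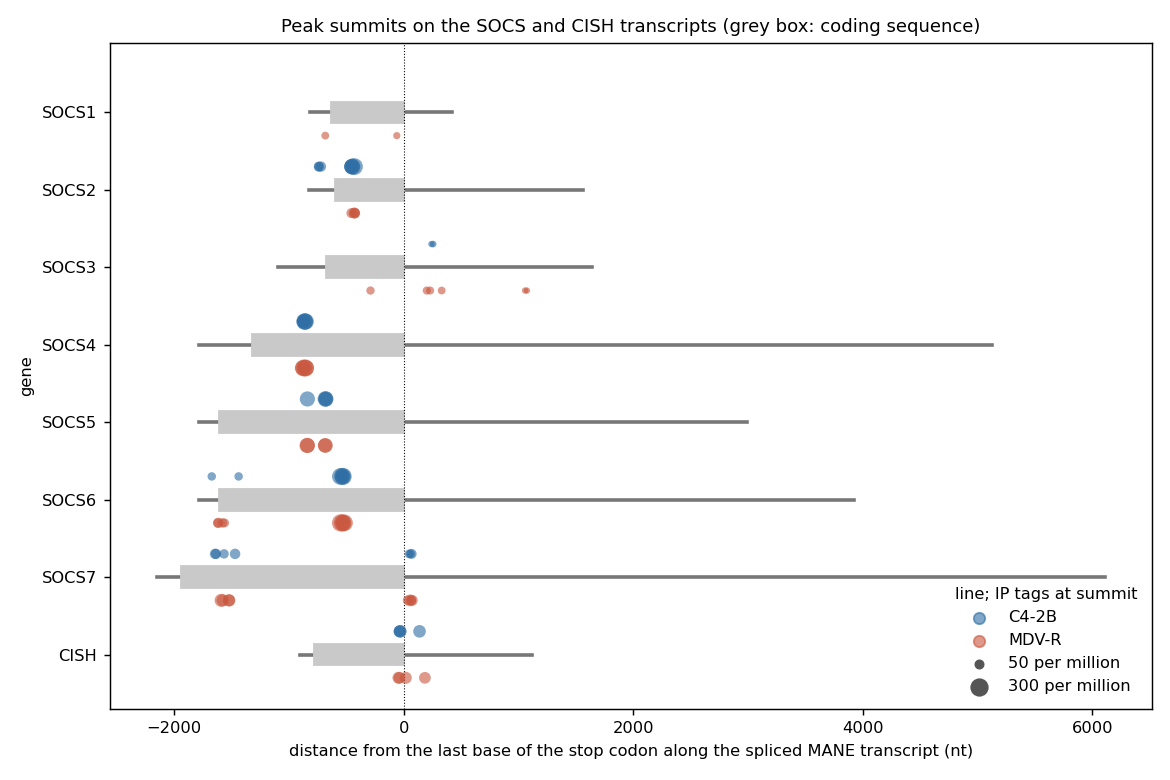
Peak summits on the 8 member transcripts with peaks. The x axis is the distance in nt from the last base of the stop codon along the spliced MANE Select transcript, grey boxes are coding sequence, and each point is 1 summit in 1 list, above the line for C4-2B and below it for MDV-R, with its area rising with the IP CPM at the summit. The large summits of SOCS4, SOCS5 and SOCS6 fall inside the coding sequence, and those of CISH at its end.

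The first question was where and how often each gene was called in the lines. A region was called in a list when a peak overlapped it by at least 1 bp. Of the 14 merged regions 6 had their strongest summit in coding sequence, 3 in a 3′UTR, 3 in an intron and 2 in a 5′UTR. Among all called regions the share in coding sequence was 25.1%, in introns 31.9%, in 3′UTRs 13.7% and in 5′UTRs 5.64%. The regions called in all 8 lists numbered 5 of 14, and 25.9% of all 36076 called regions were of this kind. They were the coding regions of SOCS2, SOCS4, SOCS5 and SOCS6 and the region at the CISH stop codon. A further 7 regions were called in more MDV-R than C4-2B lists and 1 in more C4-2B lists, while 49.7% of all called regions had more calls in MDV-R. No member region was called in all 4 lists of one line and in 0 of the other, a pattern found in 1.22% of all called regions for C4-2B and in 3.68% for MDV-R. With 4 lists per line the smallest two-sided Fisher's exact p is 0.0286. It was reached by 1766 of all regions and by no member, and no region passed after Benjamini-Hochberg adjustment over all 36076 (lowest adjusted p = 0.584, Fisher's exact test). Nothing in the labels says that replicates came from separate cultures, so that p-values here measure the spread between these libraries. In the main limma fits of fold enrichment and IP tags this spread was pooled over all regions. Those p-values therefore do not measure the spread at the single region.

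**Figure D2:**
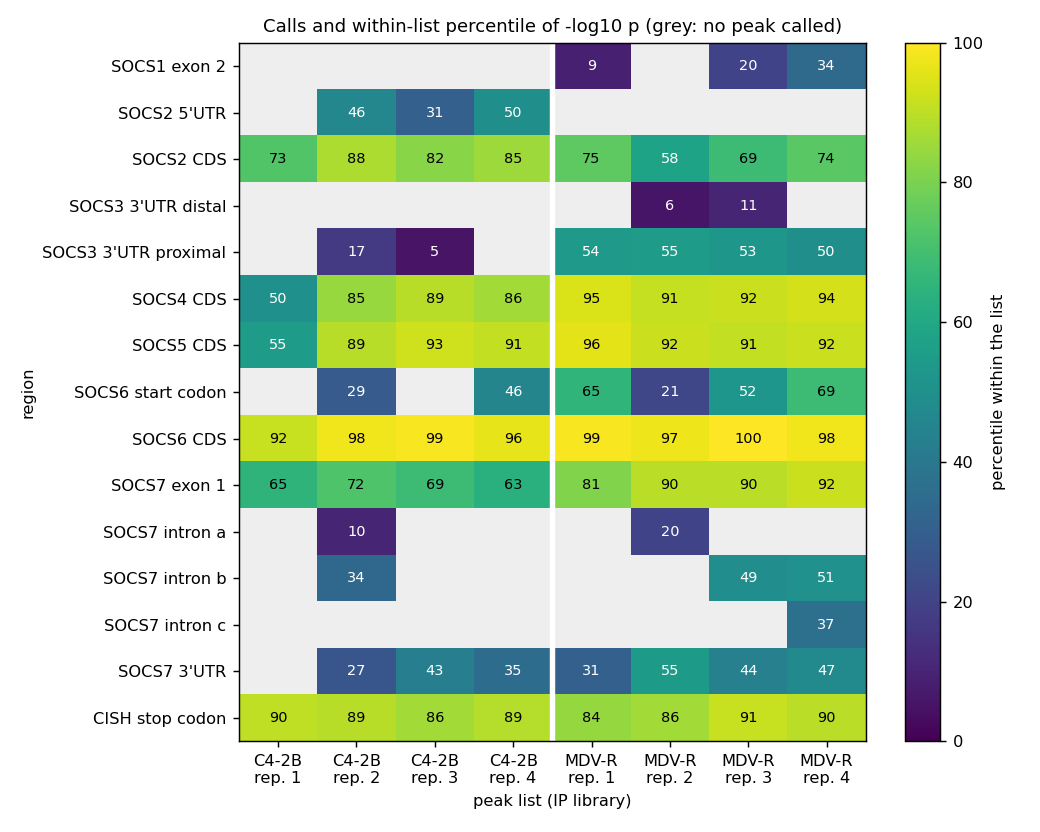
Calls in the 15 member regions, 14 from the merged list and SOCS7 exon 1, in the 8 peak lists. Colour and number give the percentile of the peak's −log10 p within its own list, and grey means that no peak was called. SOCS6 CDS lies between percentiles 91.6 and 99.9 in every list, while SOCS1, the SOCS3 distal 3′UTR and the SOCS7 introns were called in some lists only.

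SOCS1, which inhibits JAK kinases directly, had a single region at chr16:11254715-11255722, in its second exon (ENSG00000185338, minus strand). It was called in 0 of 4 C4-2B lists and in MDV-R replicates 1, 3 and 4 (Fisher's exact p = 0.143). The IP signal at the summit was 37.2, 43.5 and 32.0 CPM in these 3 lists, from 12 to 18 tags. The summits did not coincide. Counted along the transcript from the last base of the stop codon, as are all summit positions here, the summit of replicate 4 lay at −59 nt, in the CDS. That of replicate 3 lay in the 5′UTR at −682 nt and that of replicate 1 just outside the exon, which spread them over 648 nt of the genome. The region also lies within the span of RMI2 on the opposite strand, and the peak lists carry no strand. Leaving out MDV-R replicate 2, the region had 0 of 4 calls against 3 of 3, as had 1537 of the 36076 called regions. That library was the only MDV-R list without the call, so leaving it out is not a test.

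SOCS3, the main brake on signalling by interleukin 6 and related cytokines through their shared receptor subunit, was called near its stop codon in 2 C4-2B and 4 MDV-R lists (ENSG00000184557, minus strand). The proximal region at chr17:78357719-78358946 was called in C4-2B replicates 2 and 3, with 22.6 and 18.3 CPM, and in all MDV-R lists, with 49.5, 49.6, 43.5 and 53.3. All MDV-R values lay above both C4-2B values. The other 2 C4-2B lists held no peak there, so this region entered no test of levels, and the difference in calls had a Fisher's exact p of 0.429. The fold enrichment was 6.73 and 5.34 in the called C4-2B lists and 12.5, 12.9, 11.6 and 9.96 in MDV-R. The local background was at the library average (1.00 units) in both C4-2B lists and between 1.01 and 3.71 units in MDV-R. Summits in replicates 1 to 3 of MDV-R lay 202 to 332 nt beyond the stop codon and those of C4-2B 243 and 258 nt beyond it, whereas that of MDV-R replicate 4 lay in the CDS, at −288 nt. A distal 3′UTR region at chr17:78357168-78357460 was called in MDV-R replicates 2 and 3 alone, from 6 and 7 tags.

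SOCS2, which damps signalling of the growth hormone receptor, showed the largest change in IP tags among the members tested (ENSG00000120833, plus strand). Its coding region at chr12:93574466-93575146 lies in the second of 2 exons, and the 8 summits fell within 32 nt, the strongest of them 25.3% of the way into the CDS. At the summit the IP signal was 221, 280, 272 and 315 CPM in C4-2B replicates 1 to 4 and 118, 90.0, 106 and 77.3 CPM in MDV-R. The groups did not overlap, and the lowest C4-2B value lay well above the highest MDV-R value. The means were 272 ± 38.8 and 97.8 ± 17.8 (SD, n = 4), a 2.79-fold lower signal in MDV-R. The log2 change was −1.48 with a standard error of 0.17 (limma adjusted p = 2.15e-16, and exact permutation test, two-sided, p = 0.0286, which is the lower bound for 4 against 4), and with each list centred on its median the limma adjusted p was 7.87e-06.

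The local background at the same SOCS2 summit, which the peak caller took from input and which only approximates how much of the transcript was present, was 36.6, 29.3, 33.1 and 42.7 units of the library average in C4-2B and 4.83, 6.07, 11.3 and 2.07 in MDV-R. Again the groups did not overlap. The log2 change was −2.78 ± 0.46 (SE, limma adjusted p = 0.000548). The deposited fold enrichment, the ratio of IP to local background, was 5.75, 9.21, 7.98 and 7.60 in C4-2B and 15.9, 10.3, 9.27 and 18.5 in MDV-R. These values did not overlap either, although the highest C4-2B value (9.21) almost met the lowest in MDV-R (9.27). The log2 change in fold enrichment was 0.78 ± 0.36 and did not pass (limma adjusted p = 0.155; exact permutation p = 0.0286 unadjusted), and relative to the median of all regions it was 0.35. With the ratio taken without the 1 that the caller adds it was 1.40 ± 0.49 (limma adjusted p = 0.121). Without MDV-R replicate 3 it passed, with a log2 change of 0.95 and a limma adjusted p of 0.0422. That fit called 2016 of the 9327 regions higher in MDV-R, against 318 with all lists. IP signal and local background at SOCS2 were therefore both lower in MDV-R, and their ratio was not shown to differ. Only 1.51% of the 9327 regions had a lower log2 change in IP tags and 0.708% a lower one in background. In bulk RNA a smaller share of cells with the transcript and less transcript per cell cannot be told apart.

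The second SOCS2 region, at chr12:93572506-93572970 in the 5′UTR, was called in C4-2B replicates 2, 3 and 4 and in no MDV-R list. The IP signal was 96.0, 73.3 and 101 CPM, and the 3 summits fell within 19 nt, in the first exon. With all lists the difference in calls had a Fisher's exact p of 0.143. Without C4-2B replicate 1, which had the smallest list, the calls were 3 of 3 against 0 of 4, as in 1079 of the 36076 called regions. That library was the only C4-2B list without the call, so leaving it out is not a test. SOCS2-AS1, an antisense transcript at the start of the gene, does not reach this region.

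**Figure D3:**
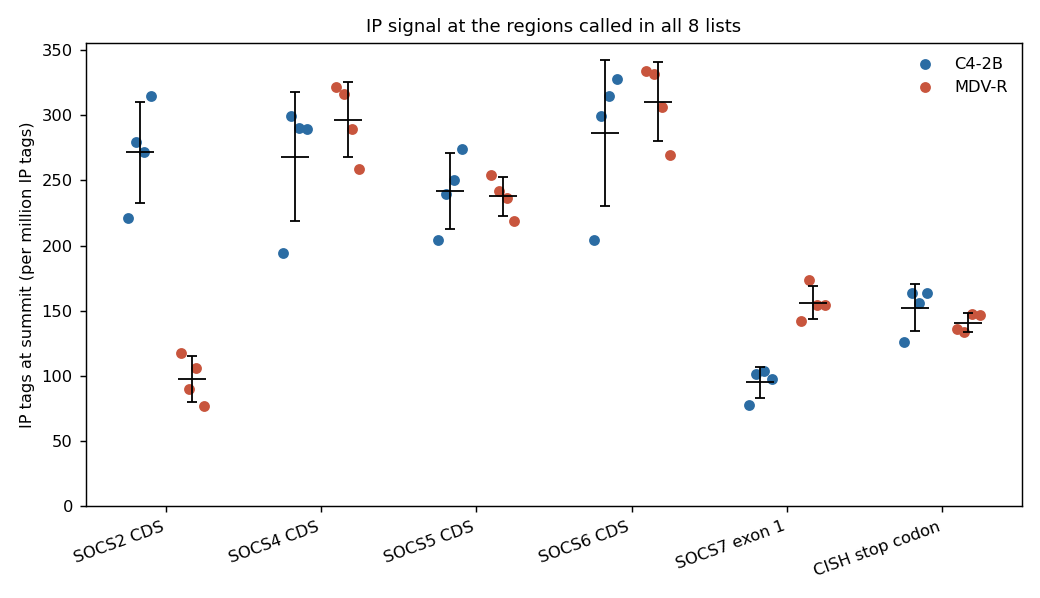
IP signal (CPM) at the summit of the 6 member regions called in all 8 lists. Each point is 1 library, bars are the mean and SD of 4, and the y axis starts at 0. SOCS2 lies at 221 to 315 in C4-2B and at 77.3 to 118 in MDV-R, SOCS7 exon 1 at 77.7 to 104 and at 142 to 174, and the other 4 genes overlap.

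CISH, the founding member of the family and a target and inhibitor of STAT5, had 1 region, at chr3:50606653-50608356 in its last exon (ENSG00000114737, minus strand). The signal in CPM was 126, 164, 156 and 164 in C4-2B and 136, 133, 147 and 147 in MDV-R, so that the groups overlapped. The log2 change was −0.11 ± 0.17 (SE, limma adjusted p = 0.68). Fold enrichment was 21.2, 22.4, 21.1 and 23.2 against 22.4, 30.1, 22.5 and 28.4, with a log2 change of 0.22 ± 0.36 (limma adjusted p = 0.692), which is −0.21 relative to the median of all regions. The log2 change in background was −0.46 ± 0.43 (limma adjusted p = 0.482), close to the median of all regions. The summits fell on both sides of the stop codon. In C4-2B they lay at −38, 139, −29 and −30 nt in replicates 1 to 4, and in MDV-R at 186, −36, −44 and 19 nt. The GGAC shown above, followed by T, has its A at −17 nt from the strongest summit.

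SOCS4 and SOCS5, which are best known for damping the epidermal growth factor receptor, each had 1 coding region called in all lists. In SOCS4 (ENSG00000180008, chr14:55042747-55044331) the 8 summits fell within 28 nt, from −880 to −852 nt. In CPM, the IP libraries gave 194, 299, 290 and 290 in C4-2B and 322, 316, 290 and 259 in MDV-R, with C4-2B replicate 1 alone below 259. The log2 change was 0.16 ± 0.17 (SE, limma adjusted p = 0.512). Fold enrichment was 4.05, 7.15, 11.0 and 8.85 in C4-2B and 16.5, 15.5, 8.91 and 19.4 in MDV-R. MDV-R replicate 3 lay within the C4-2B range and the other 3 above it. The log2 change of 0.99 ± 0.36 did not pass (limma adjusted p = 0.0776) and was 0.56 relative to all regions. Without MDV-R replicate 3 it passed (1.22, limma adjusted p = 0.0115), as did the lower background (−1.12, limma adjusted p = 0.0259, against −0.82 and 0.186 with all lists). Without that library 2016 of all 9327 regions were higher in fold enrichment, against 318 with all lists.

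In SOCS5 (ENSG00000171150, chr2:46758255-46760136) the lists disagreed on the summit. It lay at −684 to −678 nt in C4-2B replicates 1, 2 and 4 and MDV-R replicates 3 and 4, and at −840 to −837 nt in C4-2B replicate 3 and MDV-R replicates 1 and 2, and both lines held both positions. The IP signal in CPM was 204, 240, 250 and 274 in C4-2B and 254, 242, 237 and 219 in MDV-R, which overlap almost fully (log2 change −0.02 ± 0.17, limma adjusted p = 0.948). Fold enrichment was 4.25, 12.7, 18.8 and 13.2 in C4-2B and 29.5, 26.0, 10.6 and 21.0 in MDV-R. The log2 change of 0.92 ± 0.36 did not pass (limma adjusted p = 0.102), and it depended on single libraries, at 0.47 without C4-2B replicate 1 (limma adjusted p = 0.503) and 1.23 without MDV-R replicate 3 (limma adjusted p = 0.0122). The log2 change in background was −1.05 ± 0.50 (limma adjusted p = 0.165), and −0.65 and −1.48 without the same libraries (limma adjusted p = 0.444 and 0.0356). MDV-R replicate 3 had the smallest MDV-R input and the highest background of its line at SOCS2, SOCS4 and SOCS5. The part of input depth in these values was not tested. Leaving out MDV-R replicate 3 raised the number of all regions higher in fold enrichment from 318 to 2016 of 9327. A non-coding gene, LINC01118, spans SOCS5 on the same strand.

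SOCS6, which binds the receptor kinase KIT among others, held the strongest peak of the family (ENSG00000170677). Its coding region at chr18:70325050-70326471 lay between percentiles 91.6 and 99.9 of the −log10 p in each list, with all 8 summits within 36 nt, at 68.0% of the CDS for the strongest. The CPM values were 204, 299, 315 and 328 in C4-2B and 334, 332, 307 and 269 in MDV-R (log2 change 0.14 ± 0.17, limma adjusted p = 0.59). Fold enrichment was 12.7, 25.0, 38.3 and 18.3 in C4-2B and 34.3, 33.5, 37.8 and 35.8 in MDV-R. C4-2B replicate 3 exceeded all MDV-R values, and the log2 change of 0.70 ± 0.36 did not pass (limma adjusted p = 0.2). Without C4-2B replicate 1 it was 0.44 (limma adjusted p = 0.531). A second region at chr18:70324386-70324940 spans the start codon. It was called in C4-2B replicates 2 and 4, with 56.5 and 56.7 CPM, and in all MDV-R lists, with 99.1, 65.1, 79.7 and 77.3, all of them above both C4-2B values. The difference in calls had a Fisher's exact p of 0.429. Its strongest summit lay at −10 nt from the start codon, and summits of 3 of the 6 lists fell in the CDS.

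SOCS7, the longest protein-coding sequence of the family and the one with 9 coding exons, had 4 merged regions, of which 3 lay in introns (ENSG00000274211). The intronic regions were called in 1 or 2 lists of a line at most, from 7 to 21 tags. The region at chr17:38399278-38399733, just beyond the stop codon, was called in C4-2B replicates 2, 3 and 4, with 62.1, 64.1 and 91.3 CPM, and in all MDV-R lists, with 92.9, 136, 114 and 93.3. The MDV-R values all lay above those of C4-2B, the closest being 91.3 and 92.9. Fitted over the 13507 regions called in at least 3 lists of each line, with C4-2B replicate 1 missing here, IP tags were higher in MDV-R (log2 change 0.59 ± 0.19 SE, limma adjusted p = 0.0142). Local background was 9.77, 5.51 and 16.4 units in these C4-2B lists and 17.3 to 30.03 in the 4 MDV-R lists, again without overlap. Its log2 change of 1.12 ± 0.44 did not pass (limma adjusted p = 0.127, unadjusted 0.0259), where the median of all these regions was −0.44. Fold enrichment did not pass either (−0.23 ± 0.35, limma adjusted p = 0.692).

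A further region in the first exon of SOCS7, at chr17:38351737-38352999, had a peak in all 8 lists but overlaps no region of the merged list, as did 8.59% of all peaks. It was examined in a union of the 8 lists made for this purpose after its peaks were seen, with 9828 regions called in all lists. The summits spread over 174 nt within the CDS. IP CPM were 77.7, 102, 104 and 97.6 in C4-2B and 142, 174, 155 and 155 in MDV-R, with no overlap. The means were 95.2 ± 11.9 and 156 ± 12.9 (SD, n = 4), 1.65-fold higher in MDV-R. The log2 change was 0.72 ± 0.17 (SE, limma adjusted p = 0.000174 over the union regions, exact permutation p = 0.0286), and it stayed between 0.63 and 0.77 with each library left out. Fold enrichment was 13.3, 14.0, 12.9 and 11.1 in C4-2B and 17.9, 31.1, 18.2 and 32.9 in MDV-R, which did not overlap, but its log2 change of 0.91 ± 0.36 did not pass (limma adjusted p = 0.102; exact permutation p = 0.0286 unadjusted). Background overlapped between the lines (log2 change −0.21 ± 0.44, limma adjusted p = 0.771). IP tags were thus higher in MDV-R at SOCS7 exon 1, in this union, beside a background that overlapped. At the SOCS7 3′UTR they were higher in the fit over regions called in at least 3 lists of each line, without C4-2B replicate 1. Background did not overlap there, and the log2 change in fold enrichment was −0.23 and did not pass.

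**Figure D4:**
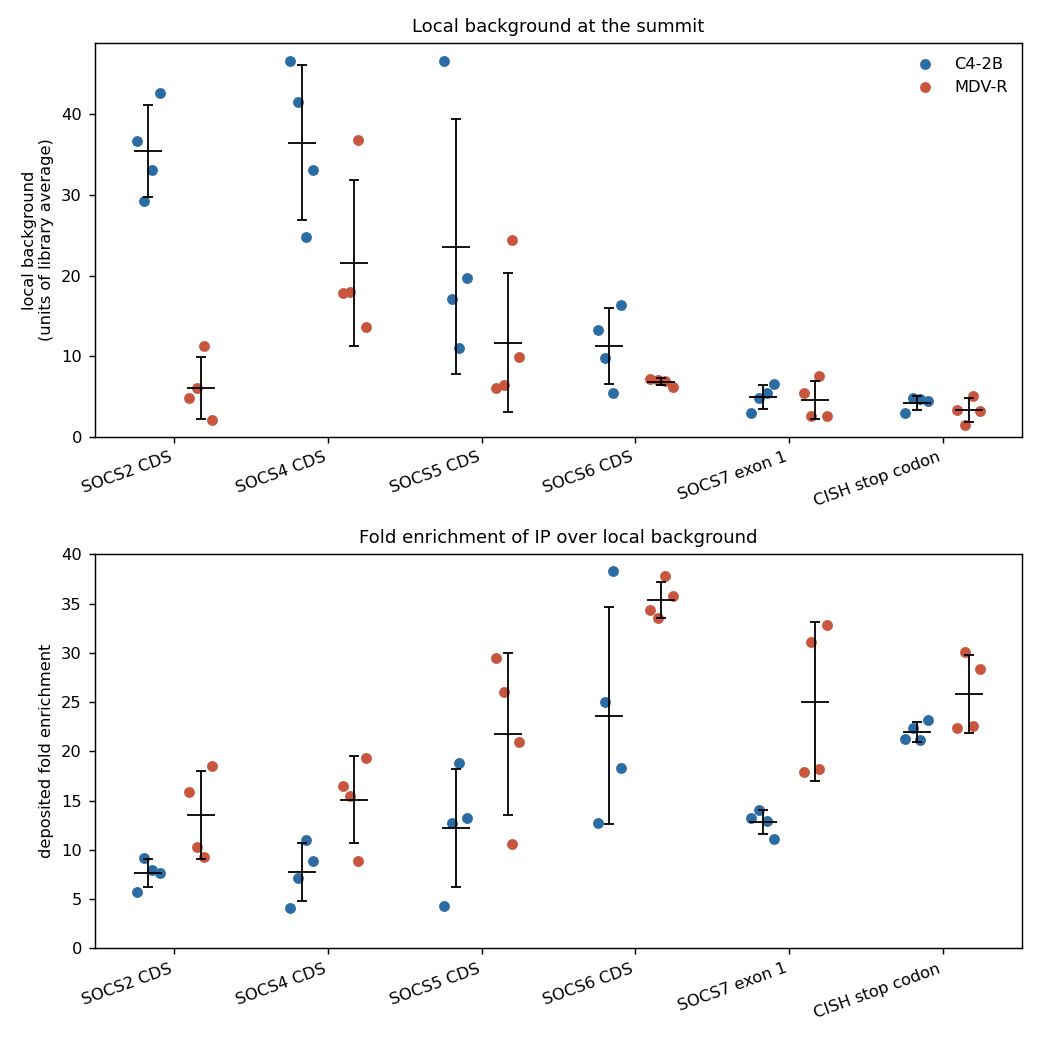
Local background in units of the library average (top) and deposited fold enrichment (bottom) at the 6 member regions called in all 8 lists. Points are libraries and bars are the mean and SD of 4. SOCS2 background is 29.3 to 42.7 units in C4-2B and 2.07 to 11.3 in MDV-R, and fold enrichment overlaps between the lines at SOCS4, SOCS5, SOCS6 and CISH.

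Over the 5 merged regions that could be tested, fold enrichment passed in 0, where 3.41% of the 9327 regions were called higher in MDV-R and 0.225% lower. The unadjusted p from limma was under 0.05 in 2356 of the 9327 regions, SOCS2, SOCS4 and SOCS5 among them. With each list centred on its median, which removes the shift of all regions, 79 regions were higher and 167 lower in fold enrichment in place of 318 and 21, with the members again at 0. IP tags passed in 1, SOCS2, which was lower, as were 19.3% of all regions, with 14.3% higher (1334 higher and 1799 lower, or 2169 and 2518 with centred lists). Background passed in 1, again SOCS2, which was lower, as were 11.0% of all regions, with 1.66% higher (155 higher and 1022 lower, or 555 and 643 with centred lists). The IP tag changes of CISH, SOCS4, SOCS5 and SOCS6 lay between −0.11 and 0.16.

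**Figure D5:**
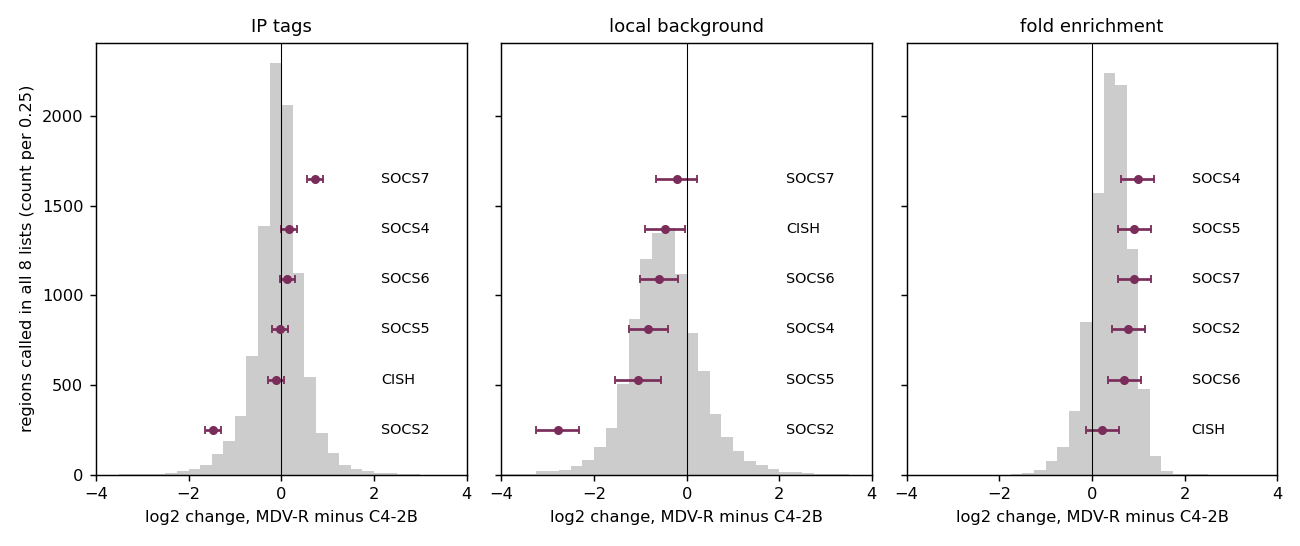
Log2 change from C4-2B to MDV-R of the 6 member regions called in all 8 lists (points, with the standard error from limma) over the distribution of all 9327 merged regions called in all 8 lists (grey bars, number of regions per 0.25). SOCS7 is its exon 1 region from the union of the lists. SOCS2 lies in the lower tail for IP tags and background, and fold enrichment of the 6 lies between 0.22 and 0.99.

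The other genes of the pathway were taken from lists by role, namely other kinases and STATs, receptors, ligands, other inhibitors and phosphatases, ligase partners and targets. Of 45 such genes 32 held 88 merged regions, 26 of which were called in all 8 lists. Among the 26, fold enrichment was higher in MDV-R in 1 and lower in 0. IP tags were higher in 0 and lower in 7, and background was higher in 0 and lower in 5. Over all 9327 regions called in all 8 lists, fold enrichment was higher in 3.41% and lower in 0.225%. IP tags were higher in 14.3% and lower in 19.3%, and background was higher in 1.66% and lower in 11.0%. The counts among the 26 depended on single libraries. Leaving out each in turn gave 0 to 7 regions higher in fold enrichment, with 0 without C4-2B replicate 1 or 4 or MDV-R replicate 1, 2 or 4 and 7 without MDV-R replicate 3. Without MDV-R replicate 3, 2016 of all 9327 regions were higher in fold enrichment, against 318 with all lists. The number with lower background was 8 without MDV-R replicate 3, 1 without MDV-R replicate 2 or 4, 2 without C4-2B replicate 1 or MDV-R replicate 1, and 3 otherwise. Over all 9327 regions it ranged from 410 to 2887 with 1 library left out. With centred lists 2 of the 26 regions were higher and 10 lower in IP tags, beside the counts of all regions with centred lists given above. Of the 9 other kinases and STATs 5 held regions, with 8 in JAK2 alone, mostly intronic. The 1 region in the STAT6 span is annotated to the 5′UTR of its neighbour LRP1. Receptors held 30 regions in 12 of 15 genes, 12 of them called in all lists. The median log2 change of these 12 was 0.50 in fold enrichment, −0.04 in IP tags and −0.59 in background, close to the medians of all regions. Targets of the pathway held 12 regions in 5 of 6 genes, and ligands 3 regions, all in or beside LIF. The SOCS box ligase partners ELOB, ELOC, CUL5 and RNF7 held 3 regions in 2 genes, CUL5 and RNF7, none called in all lists.

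PIAS2, an inhibitor of activated STATs, held the only pathway region with a change in fold enrichment, in its 3′UTR at chr18:46812002-46812812. Fold enrichment rose from 4.80 ± 1.70 in C4-2B to 11.8 ± 3.69 in MDV-R (SD, n = 4), without overlap (3.16 to 6.75 against 6.93 to 15.8). The log2 change was 1.30 ± 0.36 (SE, limma adjusted p = 0.0236), with a background lower by 1.51 on the log2 scale (log2 change −1.51, limma adjusted p = 0.0211) and no change in IP tags shown (−0.07, limma adjusted p = 0.801). The call was lost without C4-2B replicate 1 (limma adjusted p = 0.0563) or 4 (0.0917), without MDV-R replicate 1 (0.0992), 2 (0.122) or 4 (0.162), with centred lists (0.0727) and with the ratio taken without the 1 that the caller adds (0.0916), with the same direction each time. The background call was lost without the same 5 libraries (limma adjusted p = 0.0555 to 0.0746). PTPN6, a phosphatase that acts on JAK kinases in blood cells, held the only pathway region that all 4 MDV-R lists and 0 C4-2B lists called. It lay in an intron at chr12:6947509-6948456, with 48.0 to 118 CPM. Of all 36076 called regions 3.68% had this pattern of calls.

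The 7 regions with lower IP tags lay in the spans of the kinase gene JAK2, the receptor genes IL6R, LIFR and GHR, the inhibitor gene PIAS1, the phosphatase gene PTPN11 and the target CCND1, which encodes cyclin D1. They were named after their values were seen. Those of LIFR and PTPN11 are annotated to LIFR-AS1 and RPL6. The CCND1 call was lost without C4-2B replicate 2, 3 or 4 or MDV-R replicate 1, 3 or 4 (limma adjusted p = 0.0677 to 0.174), and that of JAK2 without C4-2B replicate 4 (limma adjusted p = 0.156). GHR, the growth hormone receptor that SOCS2 acts on, had an IP signal of 321 ± 37.8 CPM in C4-2B against 162 ± 28.8 for MDV-R at chr5:42718273-42719596 in its CDS (SD, n = 4), without overlap (log2 change −0.99 ± 0.17 SE, limma adjusted p = 9.09e-08). Background at that summit was 17.7 ± 4.74 units in C4-2B and 4.66 ± 3.17 in MDV-R (limma adjusted p = 0.00445), and fold enrichment did not pass (log2 change 0.58, limma adjusted p = 0.285). As at SOCS2, IP tags and background were both lower, which was not particular to GHR. In the 3′UTR of PIAS1 the log2 change was −1.01 in IP tags (limma adjusted p = 5.17e-08) and −1.31 in background (limma adjusted p = 0.0348). Fold enrichment did not pass there (limma adjusted p = 0.714). At CCND1 these changes were −0.43 and −1.26 (limma adjusted p = 0.0363 and 0.0450). Both background calls were lost without C4-2B replicate 1, among others (limma adjusted p = 0.102 and 0.121). IL6R, the receptor of interleukin 6, showed 369 ± 35.3 against 245 ± 30.8 CPM in its 3′UTR (log2 change −0.59, limma adjusted p = 0.00256), with background lower as well (−1.66, limma adjusted p = 0.0193, and 0.0891 and 0.0747 without MDV-R replicates 2 and 4).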

How the data were processed

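MeRIP-seq libraries (4 IP and 4 input per line, C4-2B and MDV-R, 16 in all) were processed by the authors. Per their methods and the submitters' processing notes, reads were aligned to hg38 with STAR 2.7.0 and GENCODE 39, uniquely mapped reads without duplicates were kept with SAMtools 1.10, and peaks of each IP library over input were called with MACS2 3.0.0a6, without a model, with a genome size of 300 Mb. The deposited lists give per peak a fold enrichment (a ratio), a −log10 p, a −log10 q and a score (10 times that −log10 q, as whole numbers). The merged list deposited by the authors gives positions without values, and how it was merged is not given in the sources used here. Read counts per region were not analysed here.

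IP tags and local background at each summit were recovered from the deposited fold enrichment and −log10 p, which whole numbers of tags solved (to within 0.002 in −log10 p) in at least 99.99% of the peaks of each list. Depth was set from the lowest background of each list, the genome size and a fragment length of 239 to 293 nt, the shortest peak of each list. An extension of 100 nt is stated, but background steps matched the longer lengths. Absolute depth is therefore a reconstruction, and the ratio of CPM between lines does not depend on the genome size. A background of 1 unit is the library average and is the lowest the caller uses.

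Regions were counted as called with at least 1 bp of overlap. Summits were placed on GENCODE 44 (same build), on MANE Select transcripts for the members. Values of the strongest peak per region were compared on the log2 scale with limma 3.58.1 (R 4.3.3) over all regions called in all 8 lists, and calls with two-sided Fisher's exact tests, each with Benjamini-Hochberg adjustment over all regions and a threshold of 0.05. In the main fold enrichment and IP tag fits limma pooled the spread fully, so that all regions share 1 standard error. Exact two-sided permutation tests used 70 arrangements. Alternatives were a stricter q, lists of equal size, another overlap, regions called in at least 3 lists of each line, the mean over peaks, centred lists, the ratio without the caller's added 1, a replicate block and each library left out. The fits were tested on simulated data. GGAC and the related forms were searched on hg38, 50 nt on either side of the summit. All member regions were reported; of the pathway lists, genes were named where a region was called in a single line or passed the fold enrichment test. Other pathway genes named (those with lower IP tags, STAT6, LIF, CUL5 and RNF7) fall outside that rule and were chosen after their values were seen. The 10 genes and all lists were chosen with earlier results of these data known. Python 3.11.15 was used for the rest.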

Additional observations from a re-analysis of the deposited data

Results flagged for a closer look

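In SOCS4 the IP signal of C4-2B replicate 1 stood apart from its line, with 194 CPM against 290 to 299 in the other 3 libraries (gap over range 0.91). It was the only such value among 45 groups of member values examined, where chance flags about 1 in 20. The same library held the smallest peak list and was the one with fewer input than IP tags. The part of depth in this value was not tested. Without it the SOCS4 change in IP tags was 0.01 on the log2 scale.

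Peaks in the first exon of SOCS7 were present in 8 of 8 lists but fell in no region of the merged list, so that no comparison built on that list includes them.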

How the results depend on the processing

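Of 235 alternative values for the 5 tested member regions, 222 kept their direction and their side of the threshold, 6 newly passed and 7 changed sign without passing on either side. The lower IP tags and background of SOCS2 passed in every alternative fit and in the unadjusted permutation test, with log2 changes of −1.58 to −1.37 and −3.16 to −2.29. Fold enrichment passed in 0 members as reported, in 1 (SOCS2) by the unadjusted exact permutation test and in 3 without MDV-R replicate 3, with 0 to 3 over the libraries left out in turn. Background passed in 1 member and in 3 without that library. IP tags passed in 1, and in 2 of 6 with regions called in at least 3 lists of each line or with a union of the lists. Regions called in a single line numbered 0, and 1 without C4-2B replicate 1 or without MDV-R replicate 2. Each time the list left out was the only one of its line without that call. The sign changes were those of CISH with centred lists (fold enrichment −0.18, background 0.026), of SOCS5 IP tags with centred lists (0.0016), without C4-2B replicate 4 (0.042), without MDV-R replicate 4 (0.020) and as coverage (0.086), and of SOCS6 IP tags without C4-2B replicate 1 (−0.019). With 1 library left out, SOCS5 IP tags ranged from −0.0998 to 0.042 and SOCS6 IP tags from −0.019 to 0.21. Over all regions, fold enrichment called 318 higher and 21 lower, and 79 and 3 without the 1 the caller adds. Leaving out 1 library gave 23 to 2016 higher and 3 to 74 lower in fold enrichment, 1085 to 1410 and 1453 to 2555 in IP tags, and 81 to 144 and 410 to 2887 in background. The 2016 were those without MDV-R replicate 3. Over the 13507 regions called in at least 3 lists of each line, 336 were higher and 32 lower in fold enrichment and 1933 higher and 2714 lower in IP tags. Exact permutation tests adjusted over all regions called 0 in each measure, SOCS2 included. Their lowest p is 0.0286, so no region can pass this adjustment unless a large share of all regions reach that bound. The outcome therefore says nothing about SOCS2 itself. The replicate block left the member counts at 0, 1 and 1 for fold enrichment, IP tags and background. Same-numbered libraries did not deviate together (correlations of −0.07 to 0.04), so the numbers were not taken to pair the lines. With each list limited to its 13191 strongest peaks, SOCS1 had 0 calls, the SOCS2 5′UTR 1 and 0, the SOCS7 3′UTR 0 and 1, the SOCS3 proximal region 0 and 3, and the SOCS6 start codon region 1 and 3 in C4-2B and MDV-R. The union, the coverage unit and the trended robust prior were added after the data were seen. As coverage, the lower IP tags of CCND1 and JAK2 did not pass (limma adjusted p = 0.115 and 0.0607), nor did CCND1 as the mean over peaks (0.0531). Causes were not tested. Libraries of 0.317 to 0.414 M IP tags limit what a weak region can show.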
